A study of Rattus norvegicus with 9 samples.

Results

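The arms of the miR-199a and miR-214 hairpins were followed in small RNA libraries of cultured rat cartilage progenitor cells. Every row of the deposited table named for miR-199a or miR-214, whatever its arm, was taken, which gave 4 of the 726 rows, namely rno-miR-199a-3p, rno-miR-199a-5p, rno-miR-214-3p and rno-miR-214-5p (the prefix rno, for rat, is left out from here on). The rows were taken by name alone, but the members were chosen with earlier results of these data known. The cells were wild-type primary cultures from condylar cartilage, in 3 groups of 3 libraries each. P9 cells had been cultured to passage 9 and stand for replicative senescence, FFSS cells were passage 3 cells under flow fluid shear stress, and P3 cells at passage 3 were the control for both. Nothing in the labels tells whether replicates are different cultures or animals; every p-value therefore reflects variation among these libraries alone, which could be technical.

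A miRNA hairpin is cut into a duplex whose arms, called 5p and 3p after the end they lie nearest, can each be loaded into Argonaute and repress mRNAs through their seed, bases 2 to 8. In mice, miR-199a and miR-214 are made from Dnm3os, a long noncoding RNA transcribed from the strand opposite the dynamin gene Dnm3; the locus is driven by Twist1 in mesenchyme, and mice without Dnm3os have skeletal and growth defects. miR-214-3p is known from mouse bone as a repressor of Atf4 in osteoblasts, miR-199a-3p from human liver cancer cells as a repressor of MTOR and MET, and miR-199a-5p from rat cardiac myocytes as a repressor of Hif1a.

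The mature sequences are shown because the seeds set the arms apart and because a further miRNA, miR-3120, is annotated on the other strand of the miR-214 hairpin. They are RefSeq entries of the build GRCr8, 5′ to 3′, with the seed in capitals, and 5 of the 5 names looked up were matched.
miR-199a-5p: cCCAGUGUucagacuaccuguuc
miR-199a-3p: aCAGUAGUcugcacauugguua
miR-214-5p: aGAGUUGUcaugugucu
miR-214-3p: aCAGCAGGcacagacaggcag
miR-3120: cACAGCAAguguagacaggca
All 4 members lie on the plus strand of chromosome 13 of GRCr8, miR-199a-5p at chr13:77116255-77116277, miR-199a-3p at chr13:77116294-77116315, miR-214-5p at chr13:77121656-77121672 and miR-214-3p at chr13:77121713-77121733. miR-3120 lies on the minus strand at chr13:77121672-77121692. The annotation places all of them within the span of Dnm3, and 5329 bases separate the end of miR-199a-3p from the start of the miR-214 hairpin. The deposited table holds no coordinates, and its reads were processed with Rnor_6.0, another build. The 5 seeds differ from one another, and no other of the 693 mature rat names in the RefSeq table carries any of them.

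The miRNA reads per library came to 7614513 to 8177357 in P9, 2878910 to 7082142 in FFSS and 7522702 to 8862560 in P3, with FFSS replicate 1 the shallowest. P9 replicate 3 stood apart from its group. Its log2 level over all rows averaging 10 counts or more correlated at 0.961 and 0.968 with the other P9 libraries, which reached 0.995 with each other, and at 0.975 with P3 replicate 2. FFSS replicate 1 correlated at 0.964 and 0.975 with the other FFSS libraries, which reached 0.989. The cartilage miRNAs miR-140 and miR-455 were present with both arms in every group, their 4 arms summing to 2590 to 3847 reads per 1000000 of the library (CPM) in P9, 6077 to 7202 CPM in FFSS and 4150 to 7370 CPM in P3.

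The members were among the most sequenced miRNAs of these cells, as far as reads show, since ligation favours some sequences over others. Together they held 2.52% to 5.61% of the reads in P9, 4.55% to 7.43% in FFSS and 4.91% to 6.84% in P3. miR-199a-3p was the leading arm in every library, at rank 5, 5 and 12 among the rows in the P9 libraries, 9, 6 and 6 in FFSS and 5, 8 and 5 in P3. miR-199a-5p followed at rank 14 to 21 in P9, 18 to 27 in FFSS and 15 to 19 in P3, and miR-214-3p at rank 42 to 50 in P9, 30 to 37 in FFSS and 38 to 43 in P3. miR-214-5p was nearly unread, with 20, 3 and 0 reads in the P9 libraries, 6, 2 and 0 in FFSS and 4, 3 and 7 in P3. The order from miR-199a-3p to miR-214-5p was the same in each of the 9 libraries.

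miR-199a-3p had 41183, 31080 and 17831 CPM in P9, 36976, 60688 and 51768 CPM in FFSS and 51416, 37857 and 50197 CPM in P3. P9 replicate 3 was the lowest of the 9 libraries, and each group overlapped with the others. Its mean was 30031 ± 11711 CPM in P9, 49811 ± 11976 CPM in FFSS and 46490 ± 7501 CPM in P3 (SD, n = 3 each). The means ran, from high to low, in the order FFSS, P3 and P9, and no pair of groups differed past the test.

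miR-199a-5p, the other arm of the same hairpin, stood at 12757, 12801 and 6334 CPM in P9, 5143, 10552 and 10424 CPM in FFSS and 14243, 9615 and 14880 CPM in P3. Here FFSS replicate 1 was the lowest library, and the groups overlapped again. The mean was 10630 ± 3721 CPM in P9, 8706 ± 3087 CPM in FFSS and 12913 ± 2874 CPM in P3 (SD, n = 3 each), so that P3 came first, P9 second and FFSS last, without a difference past the test between any of them.

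miR-214-3p reached 2160, 1747 and 1030 CPM in P9, 3364, 3017 and 4385 CPM in FFSS and 2706, 1612 and 2383 CPM in P3. All FFSS libraries lay above all libraries of P9 and of P3, while P9 and P3 overlapped. Group means were 1646 ± 572 CPM in P9, 3589 ± 711 CPM in FFSS and 2234 ± 562 CPM in P3 (SD, n = 3 each). In libraries of whole cultures, fewer cells of a type and less RNA per cell cannot be told apart.

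**Figure D1:**
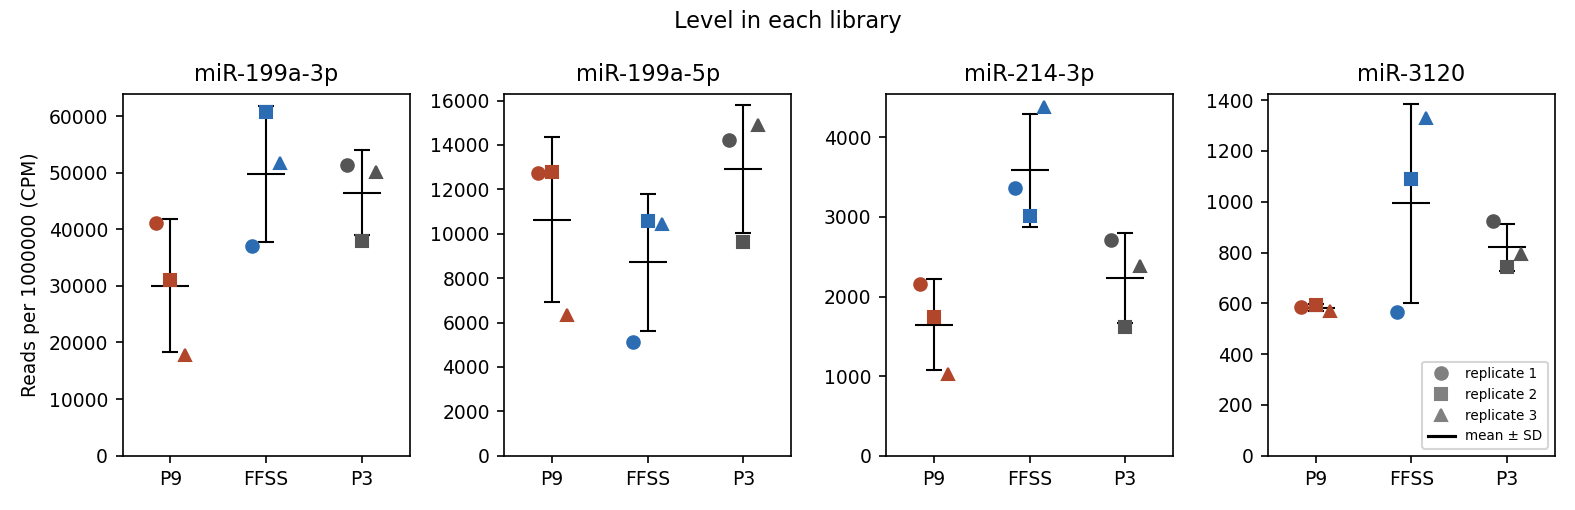
Level of the 3 abundant members and of miR-3120 in CPM (linear axes from 0) in each library of P9, FFSS and P3; points are libraries, horizontal bars the mean and whiskers the SD over 3 libraries. The FFSS libraries of miR-214-3p, at 3017 to 4385 CPM, lie above the P9 libraries at 1030 to 2160 CPM and the P3 libraries at 1612 to 2706 CPM, whereas the groups overlap for both arms of miR-199a.

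Passage 9 was set against passage 3 to follow replicative senescence, and no member was called. Counts were tested with the edgeR quasi-likelihood test over the 439 rows that passed a filter on low counts, at a Benjamini-Hochberg adjusted p under 0.05. 3 of the 4 members passed the filter; miR-214-5p did not. miR-199a-3p had a log2 fold change of -0.59 (SE 0.28, edgeR adjusted p = 0.293), miR-214-3p of -0.39 (SE 0.26, adjusted p = 0.501) and miR-199a-5p of -0.23 (SE 0.31, adjusted p = 0.796). The count called was 0 of 3 with edgeR, DESeq2 and limma-voom, beside 7.29% of all rows with edgeR, and at an unadjusted p under 0.05 it was 0 with edgeR and DESeq2 and 1 with limma-voom, beside 17.3% of all rows with edgeR. P9 replicate 3 was the lowest P9 library of all 3 arms, and without it the values came to -0.35 for miR-199a-3p, -0.17 for miR-214-3p and 0.01 for miR-199a-5p. In that library the 5 muscle markers summed to 534 CPM, most of it miR-1b, against 141 to 158 CPM in P3. Of these, miR-1b had 462 CPM in P9 replicate 3, against 111.6 to 124.7 CPM in P3, miR-133a-3p 40.4 against 8.24 to 10.8 CPM, miR-1-3p 20.7 against 7.33 to 12.5 CPM and miR-133b-3p 0.856 against 0.399 to 0.832 CPM, whereas miR-206-3p had 9.78 CPM, below its 10.3 to 12.2 CPM in P3. Markers of other cell types also stood apart in P9 replicate 3, in both directions. Among those above P3 were miR-122-5p of liver (22.9 against 9.87 to 11.7 CPM) and endothelial miR-126a-3p (489 against 377 to 399 CPM). Among those below P3 were endothelial miR-126a-5p (1.59 against 3.99 to 8.46 CPM) and epithelial miR-203a-3p (7.95 against 52.8 to 72.0 CPM). Of the other epithelial markers, miR-200b-3p was above P3 (8.32 against 3.27 to 4.52 CPM) and miR-200c-3p within its range. miR-200a-3p, miR-205, miR-429 and miR-141-3p were below it. Of the blood markers, miR-486 (181 against 44.9 to 67.4 CPM), miR-451-5p (117 against 24.5 to 85.2 CPM) and miR-142-5p were above P3. miR-142-3p and miR-223-3p were below it, and miR-144-3p had no read in P9 replicate 3 or P3. The part of all these markers in the members' levels was not tested.

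Shear-stressed cells were set against the P3 control to follow mechanical stress, and again no member was called. miR-214-3p had a log2 fold change of 0.65 (SE 0.26, edgeR adjusted p = 0.0991), with FFSS libraries that did not overlap with P3, as was the case for 41.5% of the rows tested. The value for miR-199a-5p was -0.62 (SE 0.31, adjusted p = 0.172) and that for miR-199a-3p 0.06 (SE 0.28, adjusted p = 0.896). The count called was 0 of 3 with edgeR, DESeq2 and limma-voom, beside 20.5% of all rows with edgeR, and 1 of 3 at an unadjusted p under 0.05 with each tool, beside 36.2% of all rows with edgeR. miR-214-3p passed in a fit of P3 and FFSS alone (0.68, SE 0.24, edgeR adjusted p = 0.0485). miR-199a-5p passed without P9 replicate 3 (-0.69, SE 0.25, edgeR adjusted p = 0.0440). That library is in neither group and enters this comparison through the filter, the scaling and the spread that all libraries share.

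Markers of other cell types were read beside this comparison. The 6 blood markers summed to 167 to 592 CPM in FFSS and 75.7 to 156 CPM in P3, where miR-144-3p had no read. The 5 muscle markers summed to 189 to 538 CPM in FFSS and 141 to 158 CPM in P3, the 2 endothelial markers to 556 to 695 CPM in FFSS and 386 to 406 CPM in P3, the 7 epithelial markers to 90.4 to 226 CPM in FFSS and 81.1 to 102 CPM in P3, and miR-122-5p of liver to 15.5 to 51.4 CPM in FFSS and 9.87 to 11.7 CPM in P3. Of these, 1 of 6 tested epithelial markers (miR-200b-3p, by 1.53 on the log2 scale, edgeR adjusted p = 0.0399) and 1 of 4 tested blood markers (miR-142-5p, by 1.53, adjusted p = 0.0437) rose, beside 6.83% of all rows, and none of 4 muscle, 2 endothelial and 1 liver marker passed the test. Both calls rest on few reads. miR-200b-3p had 33 to 57 reads a library in FFSS and 29 to 38 in P3, and miR-142-5p 47 to 73 and 34 to 44. Every tested marker of these 5 lists had a positive log2 fold change in FFSS against P3. The median was 1.55 for blood, 0.90 for muscle, 0.72 for epithelium and 0.32 for endothelium, beside 0.02 over all rows tested. The liver marker had 1.57. The FFSS libraries were shallower than those of P3, and reads of some markers overlapped, such as miR-133a-3p at 77 to 82 in FFSS and 62 to 96 in P3. In P9, the sums were 69.5 to 307 CPM for blood, 275 to 491 CPM for endothelium, 25.2 to 77.7 CPM for epithelium and 3.43 to 22.9 CPM for miR-122-5p. The part of these markers in the level of miR-214-3p was not tested.

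Setting P9 against FFSS tests directly whether both departures from P3, which share their control libraries, differ from each other. miR-214-3p was lower in P9, with a log2 fold change of -1.03 (SE 0.26, edgeR adjusted p = 0.00950), that is 0.489 times its FFSS level. All 3 P9 libraries lay below all 3 FFSS libraries, as was the case in either direction for 42.8% of the rows. miR-199a-3p had a value of -0.65 (SE 0.28, adjusted p = 0.0834) and miR-199a-5p one of 0.39 (SE 0.31, adjusted p = 0.341), neither past the test. For miR-199a-3p the value came to -0.35 without P9 replicate 3 and to -0.38 without FFSS replicate 2. So 1 of 3 tested members was called, beside 34.4% of all rows, a share near the background, and 2 of 3 had an unadjusted p under 0.05, beside 46% of all rows. The call on miR-214-3p held in each of 19 alternative fits, at an adjusted p of 0.00198 to 0.0399 and a log2 fold change of -1.17 to -0.69. miR-199a-5p passed without P9 replicate 3 (0.71, SE 0.27, adjusted p = 0.0474). Among the markers of other cell types, 1 of 6 tested epithelial markers (miR-203a-3p, -1.57 on the log2 scale, edgeR adjusted p = 0.0361) and 1 of 4 tested blood markers (miR-142-5p, -1.34, adjusted p = 0.0473) were lower in P9 as well, beside 11.8% of all rows, and none of 4 muscle, 2 endothelial and 1 liver marker passed. Their part in the difference of miR-214-3p was not tested.

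The balance between the arms of miR-199a was read within each library, where it does not depend on how libraries are scaled. The RefSeq entries used here name 1 miR-199 locus. Reads of any other hairpin with the same arm sequence would be counted with it, which was not tested. There were 3.23, 2.43 and 2.81 reads of miR-199a-3p per read of miR-199a-5p in P9, 7.19, 5.75 and 4.97 in FFSS and 3.61, 3.94 and 3.37 in P3. The groups did not overlap with each other: FFSS libraries had the highest share of 3p, P3 libraries followed and P9 libraries had the lowest. The group means were 2.82 ± 0.40 reads in P9, 5.97 ± 1.13 reads in FFSS and 3.64 ± 0.28 reads in P3 (SD, n = 3 each).

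Tested with limma over 89 hairpins whose arms both averaged 20 counts or more, the log2 ratio of 5p to 3p differed by -0.70 between FFSS and P3 (SE 0.33, limma adjusted p = 0.161) and by 0.37 between P9 and P3 (SE 0.33, adjusted p = 0.989). Between P9 and FFSS it differed by 1.07 (SE 0.33, adjusted p = 0.0534), which missed the threshold. Of all hairpins, 4.49% were called for FFSS against P3, 0% for P9 against P3 and 7.87% for P9 against FFSS, and the libraries did not overlap for 44.9%, 8.99% and 30.3% of them in the same order. The difference between P9 and FFSS passed among hairpins averaging 100 counts or more on both arms (adjusted p = 0.0286) and without P9 replicate 3 (1.08, adjusted p = 0.0264).

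miR-214-3p and miR-199a-3p come from neighbouring hairpins, and their ratio was read in the same way. There were 5.25, 5.62 and 5.78 reads of miR-214-3p per 100 reads of miR-199a-3p in P9, 9.10, 4.97 and 8.47 in FFSS and 5.26, 4.26 and 4.75 in P3. FFSS replicates 1 and 3 lay above all other libraries, and FFSS replicate 2 lay within the range of P3. The log2 ratio differed by 0.62 between FFSS and P3 and by 0.23 between P9 and P3 (exact permutation test, two-sided, p = 0.2 for each, adjusted p = 0.3 over 9 ratios). For P9 against FFSS the difference was -0.39, with overlapping libraries (exact permutation test, two-sided, p = 0.4, adjusted p = 0.514). With 3 against 3 libraries this test cannot go below 0.1. Against the 5p arm of miR-199a, a ratio chosen after its values were seen and therefore not tested, miR-214-3p had 16.9, 13.6 and 16.3 reads per 100 in P9, 65.4, 28.6 and 42.1 in FFSS and 19.0, 16.8 and 16.0 in P3.

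**Figure D2:**
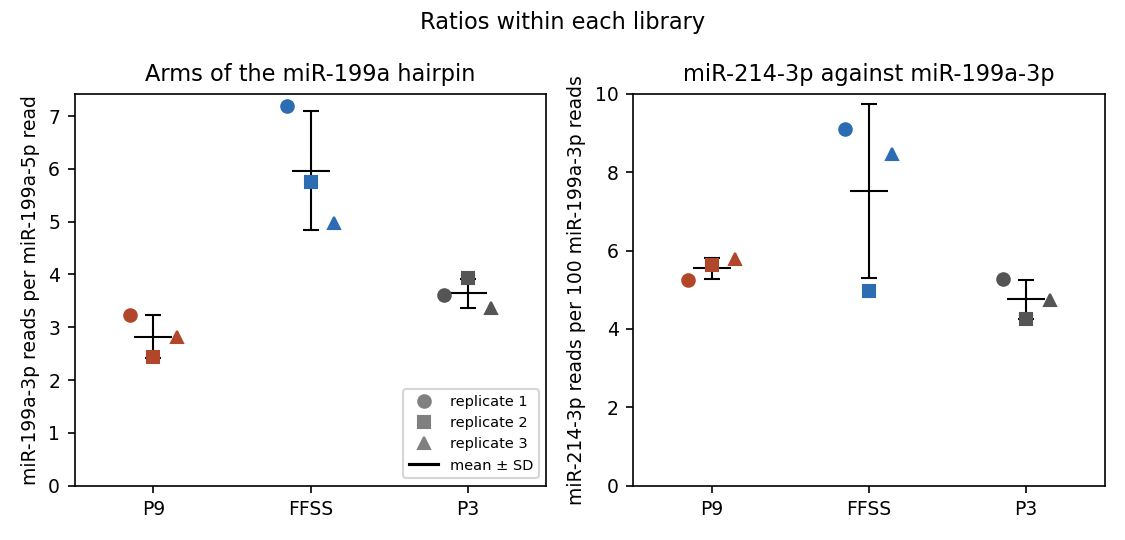
Reads of miR-199a-3p per read of miR-199a-5p (left) and reads of miR-214-3p per 100 reads of miR-199a-3p (right) in each library of P9, FFSS and P3, on linear axes from 0; points are libraries, horizontal bars the mean and whiskers the SD over 3 libraries. For the arms of miR-199a the FFSS libraries, at 4.97 to 7.19, lie above P9 and P3, while on the right FFSS replicate 2, at 4.97, falls within the range of P3.

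The 5p arm of miR-214 was hardly seen under its own name. miR-214-5p took 0.121% of the reads of its hairpin in P9 replicate 1 (exact 95% binomial interval 0.0742% to 0.187%), the highest share of the 9 libraries. In P9 replicate 3 and FFSS replicate 3 it had 0 reads, which allows a share of up to 0.0356% and 0.0176%, taken as 3 reads of the hairpin's total; the exact 95% binomial interval reaches 0.0438% and 0.0216%. The interval and limits cover counting error only. At these counts no difference between groups was detectable: without the filter on low counts the edgeR adjusted p was 0.807 for P9 against P3, 0.998 for FFSS against P3 and 0.708 for P9 against FFSS.

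The RefSeq entry of miR-214-5p is 17 bases long and covers bases 12 to 28 of the 108-base hairpin, counted from its 5′ end. In the fold predicted by RNAfold, 18 of the 21 bases of miR-214-3p are paired, with partners between bases 27 and 47, and only 2 bases of miR-214-5p are among them. The stretch at bases 28 to 48, printed here because it is the exact reverse complement of miR-3120, supplies 17 of these partners.
miR-214 hairpin, bases 28 to 48: ugccugucuacacuugcugug
The stretch and the miR-214-5p entry share 1 base. The row for miR-3120 held 48698 reads over the 9 libraries, the row for miR-214-3p 142765 and that for miR-214-5p 45. Of the strand of a read and its use in counting nothing is stated in the sources used here. Without it, reads of this stretch of the miR-214 hairpin and of miR-3120 cannot be told apart.

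**Figure D3:**
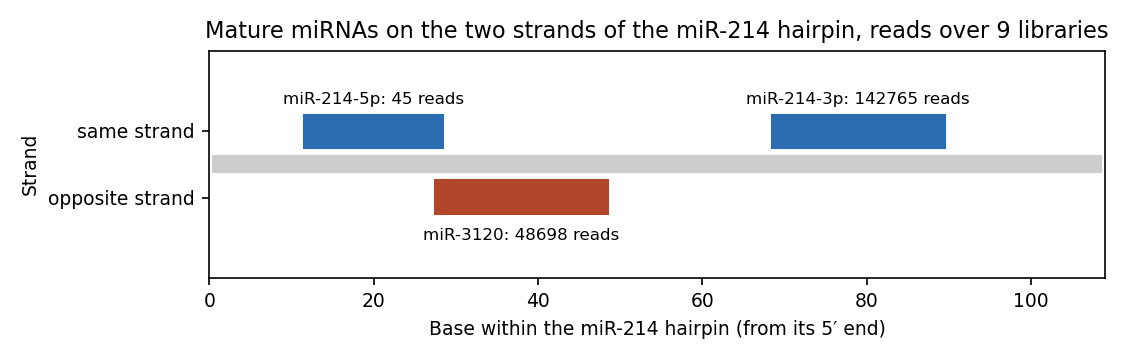
Position of miR-214-5p and miR-214-3p on the miR-214 hairpin and of miR-3120 on its opposite strand, in bases from the hairpin's 5′ end, with the reads of each row summed over 9 libraries. The row for miR-3120, at 48698 reads, covers bases 28 to 48, which pair with miR-214-3p in the predicted fold, and miR-214-5p, at 45 reads, covers bases 12 to 28.

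miR-3120, known in humans as a mirror miRNA of miR-214 within DNM3, had 585, 595 and 568 CPM in P9, 564, 1088 and 1329 CPM in FFSS and 924, 744 and 795 CPM in P3. All P9 libraries lay below all P3 libraries, as was the case in either direction for 25.3% of the rows, and FFSS replicate 1 was the lowest of all. The log2 fold change was -0.42 for P9 against P3 (SE 0.28, edgeR adjusted p = 0.494), 0.21 for FFSS against P3 (SE 0.28, adjusted p = 0.592) and -0.63 for P9 against FFSS (SE 0.28, adjusted p = 0.0969). The last passed without FFSS replicate 1 (-0.76, SE 0.22, adjusted p = 0.0231). There were 0.271, 0.340 and 0.552 reads of miR-3120 per read of miR-214-3p in P9, 0.168, 0.361 and 0.303 in FFSS and 0.341, 0.462 and 0.333 in P3, with all groups overlapping.

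The members were set beside other miRNAs of mesenchyme and cartilage. Of 11 mesenchyme and fibroblast miRNAs, 1 rose and 0 fell in P9 against P3 with edgeR, beside 3.87% and 3.42% of all rows, with a median log2 fold change of 0.54 beside 0.06 over all rows tested. In FFSS against P3, 0 rose and 2 fell, beside 6.83% and 13.7% of all rows, and the median was -0.13, beside 0.02. In P9 against FFSS 6 were higher, namely miR-10b-5p, miR-21-5p and both arms of miR-143 and miR-145, and 1 was lower, miR-152-3p, beside 22.6% and 11.8% of all rows, and the median was 1.19, beside 0.02. miR-143-3p, which with miR-145-5p marks fibroblasts and smooth muscle, rose in P9 against P3 by 1.35 on the log2 scale (SE 0.24, edgeR adjusted p = 0.00348). miR-145-5p, from the same transcript, fell in FFSS against P3 by 1.57 on the log2 scale (SE 0.34, edgeR adjusted p = 0.00944), as did miR-10b-5p (by 1.57, SE 0.50, adjusted p = 0.0441). The other arms of miR-143 and miR-145 were not called there. miR-145-3p had -0.34, miR-143-5p -0.36 and miR-143-3p -0.13 (edgeR adjusted p = 0.457, 0.497 and 0.727). Of 4 cartilage miRNAs, 0 passed in either comparison with P3 by edgeR (at an unadjusted p under 0.05, miR-140-3p and miR-140-5p in P9 against P3), and in P9 against FFSS miR-140-3p was lower (-1.06, SE 0.27, edgeR adjusted p = 0.00953).

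Within libraries, miR-199a-3p and miR-214-3p were also set against miR-143-3p and miR-145-5p. By edgeR the latter pair was itself higher in P9 than in FFSS, by 1.48 and 2.61 on the log2 scale. miR-199a-3p was not called in any comparison. The ratios therefore include the change of the miRNA divided by. How often ratios of other rows separate the groups in this way was not tested. There were 13.3 to 23.1 reads of miR-199a-3p per 100 reads of miR-143-3p in P9, 74.2 to 89.8 in FFSS and 55.0 to 88.1 in P3, so that P9 lay below both other groups. Per 100 reads of miR-145-5p, miR-214-3p had 12.2 to 17.2 reads in P9, 107 to 234 in FFSS and 27.7 to 43.6 in P3, with no overlap between any groups. These ratios reached the smallest p that 3 against 3 libraries allow where the groups were separate (exact permutation test, two-sided, p = 0.1; adjusted p over 9 ratios 0.225 for P9 against P3, 0.3 for FFSS against P3 and 0.18 for P9 against FFSS).

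Against the cartilage miRNA miR-140-3p, miR-214-3p had 50.6 to 72.0 reads per 100 in P9, 52.7 to 90.8 in FFSS and 40.7 to 51.7 in P3. P9 and FFSS overlapped widely, with a difference of -0.03 on the log2 scale (exact permutation test, two-sided, p = 0.9, adjusted p = 0.9), although both miRNAs were lower in P9 than in FFSS by the edgeR test. FFSS lay above P3 by 0.44 on the log2 scale (exact p = 0.1, adjusted p = 0.3), and by 0.19 without FFSS replicate 3. miR-199a-3p had 876 to 1373 reads per 100 of miR-140-3p in P9, 580 to 1098 in FFSS and 857 to 1214 in P3, and all groups overlapped.

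**Figure D4:**
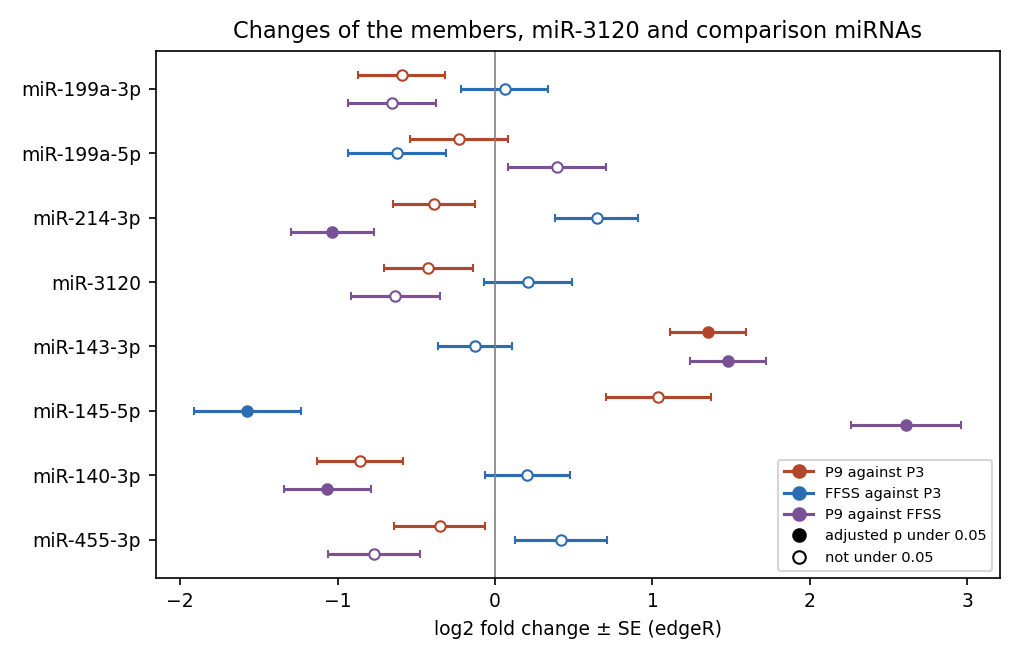
Log2 fold change from the edgeR test, with whiskers of 1 SE, for each of the 3 comparisons between groups, for the tested members, miR-3120 and 4 comparison miRNAs; filled points have an adjusted p under 0.05. Of the members, miR-214-3p in P9 against FFSS, at -1.03, is filled, while miR-143-3p and miR-145-5p lie to the other side of 0 in that comparison, at 1.48 and 2.61.

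The rows whose level followed the members most closely were found by the Pearson correlation of log2(CPM + 1) with the mean of the 3 abundant members over the 9 libraries, among 178 other rows with a mean of at least 50 CPM. They were miR-27b-3p (r = 0.969), miR-148b-3p (0.949), miR-532-5p (0.907), miR-181b-5p (0.899) and miR-3586-3p (0.895), which had nearly the same counts as miR-151-5p and is uncertain on its own. The members did not all follow one another, so their mean is not 1 shared profile. miR-199a-3p correlated at 0.81 with miR-214-3p and at 0.54 with miR-199a-5p, and miR-199a-5p at 0.12 with miR-214-3p. The rows of a library share its depth and total, and the values describe these 9 libraries only. miR-27b-3p, among the most abundant rows, averaged 35418 ± 13504 CPM in P9, 56664 ± 16362 CPM in FFSS and 57065 ± 14236 CPM in P3 (SD, n = 3 each), and was not called in any of the 3 comparisons with edgeR (adjusted p = 0.252 for P9 against P3, 0.914 for FFSS against P3 and 0.118 for P9 against FFSS).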

How the data were processed

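Small RNA for 9 libraries was ligated to adaptors and sequenced from 1 end, per the labels' protocols. The deposited table gave raw read counts per miRNA row, per the file headers, and a TPM value, per the file headers, that equalled CPM of the table's total (largest difference 4.85e-05), so no length term entered it. The submitters' processing notes name Bowtie and Rnor_6.0; the counting program, its annotation and its use of strand are not stated in the sources used here. No row came within 10% or 5 reads of a member in every library, among pairs where either row averaged at least 10 counts. miR-214-5p, at 45 reads over 9 libraries, was too low for this search to be informative.

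Counts were tested with edgeR 4.0.16 (R 4.3.3): filterByExpr kept 439 of 726 rows and removed 0.00685% of reads, libraries were scaled by TMM, and 1 robust quasi-likelihood model held all 9 libraries. Arm ratios, with 0.5 added to each count, used limma 3.58.1; DESeq2 1.42.0 was an alternative. Ratios between miRNAs used exact permutation tests in scipy 1.17.1; the miR-214 hairpin was folded with ViennaRNA 2.7.2. The scripts were tested on simulated data. Named are all members, miR-3120, fixed lists and the 5 most similar rows. Members and lists were chosen with earlier results of these data known. miR-122-5p, miR-126a-3p, miR-126a-5p and the 7 epithelial, 6 blood and 5 muscle markers come from the marker lists and were named after their values were seen. Alternatives were other scalings, no filter, other tools, fewer groups, a replicate block and leaving out libraries.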

Additional observations from a re-analysis of the deposited data

Results flagged for a closer look

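miR-214-3p differed between P9 and FFSS by -1.03 on the log2 scale (edgeR adjusted p = 0.00950). Its 3 P9 libraries lay 1.08 to 0.01 below the P3 mean on the log2 scale of CPM, and its 3 FFSS libraries 0.47 to 1.01 above it.

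The log2 ratio of miR-199a-5p to miR-199a-3p differed by 1.07 between P9 and FFSS. Every P9 library lay above the P3 mean, by 0.17 to 0.58, and every FFSS library below it; the limma test of the difference gave an adjusted p = 0.0534.

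Within libraries, 3 of the 9 ratios tested were flagged because they moved in opposite directions from the P3 mean in all P9 and all FFSS libraries. The difference between P9 and FFSS was -3.26 on the log2 scale for miR-199a-3p to miR-145-5p, -2.57 for miR-214-3p to miR-143-3p and -3.65 for miR-214-3p to miR-145-5p. The exact permutation test, two-sided, gave p = 0.1 for each, the smallest it can give here (adjusted p = 0.18). The miRNAs divided by moved further than the members. By edgeR, P9 against FFSS gave 2.61 for miR-145-5p and 1.48 for miR-143-3p on the log2 scale. The same fit gave -0.65 for miR-199a-3p, not called, and -1.03 for miR-214-3p.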

How the results depend on the processing

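Of 372 alternative values for the members, the arm ratio and the ratios between miRNAs, 347 were counted as unchanged. For the members and the arm ratio this means the same direction and the same side of the threshold. The ratios between miRNAs were judged by direction alone, without a test. miR-199a-5p in P9 against P3 turned to 0.035 without P9 replicate 3 and FFSS replicate 1 together, a pair chosen after seeing the data; leaving out each library in turn gave -0.40 to 0.012. In FFSS against P3, miR-199a-3p turned to -0.023 without the 10 most abundant miRNAs in TMM and to -0.067 with no filter on low counts (-0.21 to 0.11 leaving out each library). miR-214-3p there passed at 0.68 with only both compared groups and at 0.54 without that pair of libraries (0.44 to 0.67 leaving out each library), and miR-199a-5p ranged from -0.91 to -0.49. In P9 against FFSS miR-199a-5p ranged from 0.28 to 0.71 and the arm ratio from 0.93 to 1.20; the ratio passed at 1.07 with at least 100 counts on both arms. Leaving out each library turned the log2 ratio of miR-214-3p to miR-455-3p in P9 against P3 (-0.17 to 0.058), of miR-199a-3p to miR-143-3p (-0.042 to 0.30) and to miR-140-3p (-0.33 to 0.13) in FFSS against P3, and of miR-199a-3p to miR-455-3p (-0.094 to 0.41) and miR-214-3p to miR-140-3p (-0.17 to 0.22) in P9 against FFSS. The cause was not tested.

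Over all 439 rows, leaving out each library gave 8 to 26 higher (17 with all) and 7 to 25 lower (15) in P9 against P3, 3 to 53 higher (30) and 32 to 94 lower (60) in FFSS against P3, and 28 to 80 lower (52) in P9 against FFSS. In FFSS against P3 the number higher was 15 with no filter and 51 with only both compared groups, and in P9 against FFSS the number lower was 28 with only both compared groups. Without P9 replicate 3 and FFSS replicate 1 together these counts were 48, 41, 68, 107 and 84. Scaling by library size moved the median of all rows by -0.10 in P9 against FFSS. Deviations from the group means correlated at -0.51 to 0.14 between libraries of the same replicate number. With 3 libraries a group this cannot settle whether the samples were paired. With the replicate block 9 rows were higher in FFSS against P3, and no call on a member changed. Counting error is small for the 3 abundant members, whose lowest count was 8421, and limits miR-214-5p.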
